A study of Homo sapiens with 15 samples.

Results

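The 10 genes described here are those for prostaglandin synthesis, breakdown and reception: PLA2G4A, PTGS1, PTGS2, PTGES, PTGES2, PTGES3, PTGIS, PTGER2, PTGER4 and HPGD. They were taken by symbol from a gene count table of 37787 genes, and all 10 are in it. RNA was sequenced from HGrC1 cells at passage 14, an immortalized line of non-luteinized human granulosa cells whose own FOXL2 alleles are normal, in 5 conditions of 3 libraries each (replicates A, B and C). The conditions were empty plasmids (Vectors), SMAD3 with wild-type FOXL2 (FOXL2WT), SMAD3 with the granulosa tumor form of FOXL2 (FOXL2C134W), and either FOXL2 form with SMAD3 and the constitutively nuclear FOXO1-3A (FOXL2WT + FOXO1, FOXL2C134W + FOXO1). All cells were lipofected for 4 h and then kept without serum for 24 h. Vectors lacked both transfected FOXL2 and transfected SMAD3, so the effects of these factors against Vectors cannot be told apart. The transfection was transient and in 1 cell line.

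Prostaglandins are made from arachidonic acid. Cytosolic phospholipase A2, encoded by PLA2G4A, frees it from membranes, the cyclooxygenases encoded by PTGS1 and PTGS2 convert it to prostaglandin H2, and terminal synthases turn this into prostaglandin E2 (PTGES, PTGES2, PTGES3) or prostacyclin (PTGIS). Prostaglandin E2 acts on cells through receptors that include EP2 (PTGER2) and EP4 (PTGER4), both of which raise cyclic AMP, and the dehydrogenase encoded by HPGD inactivates it. In the ovary, granulosa cells of the preovulatory follicle induce PTGS2 after the gonadotropin surge, and prostaglandin E2 is needed for cumulus expansion and rupture of the follicle.

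Library totals ran from 14962245 to 25339094 estimated counts, so that 3 counts, the upper limit that a count of 0 allows, corresponded to 0.119 to 0.202 CPM (counts scaled to a fixed library total, with TMM factors). The transfected genes were followed first. FOXL2 averaged 8.73 CPM in Vectors, 561 in FOXL2WT, 147 in FOXL2C134W, 384 in FOXL2WT + FOXO1 and 152 in FOXL2C134W + FOXO1. SMAD3 averaged 249, 2768, 843, 969 and 392 CPM in the same order. FOXO1 averaged 12.0 to 13.2 CPM in the conditions without it, 117 CPM in FOXL2WT + FOXO1 and 43.2 CPM in FOXL2C134W + FOXO1. The FOXL2 form and FOXO1 thus came with unequal amounts of FOXL2 and SMAD3 RNA, and the part of these amounts in the results below was not tested. These are RNA values only. By immunoblot of cultures kept in parallel, the paper describes the protein of both FOXL2 forms and of FOXO1 as balanced. Of 13 granulosa markers, GATA4 (129 to 154 CPM) and WT1 (38.8 to 47.7 CPM) were clearly present and NR5A1 lower (3.83 to 6.4 CPM), while the FSH receptor gene FSHR had 0 counts in all 15 libraries and CYP19A1 at most 4. LHCGR, which encodes the LH receptor, was at 0 throughout. Beside FOXL2 itself, GATA4 was lower than in Vectors in FOXL2WT (log2 fold change -0.16, adjusted p = 0.0373) and CYP11A1 in FOXL2WT + FOXO1 (-0.93, adjusted p = 0.0418). CYP11A1 had 16 to 48 counts a library, and DESeq2 did not call it in FOXL2WT + FOXO1. The part of these markers in the members' results was not tested. The labels do not say that replicates came from separate cultures, so p-values measure only the spread between these libraries.

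Levels per transcript length set the members far apart. PTGES3, which encodes the HSP90 co-chaperone p23 as well as a cytosolic prostaglandin E synthase activity, lay between 364 and 404 TPM in all 15 libraries. PTGIS (30.7 to 59.1 TPM) and PTGES2 (36.2 to 47.5 TPM) came next. PTGES, the inducible microsomal synthase, had 1.63 to 2.93 TPM, PTGS1 had 0.679 to 2.6 TPM and PTGER2 had 0.376 to 1.27 TPM. The ratio of PTGIS to PTGS1 on the TPM scale was 14.6 to 47.9 over the 15 libraries, with a ratio of PTGIS to PTGES of 13.0 to 23.8. The last 4 members, PTGER4, PLA2G4A, HPGD and PTGS2, stayed at or below 0.165 TPM in every library.

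**Figure D1:**
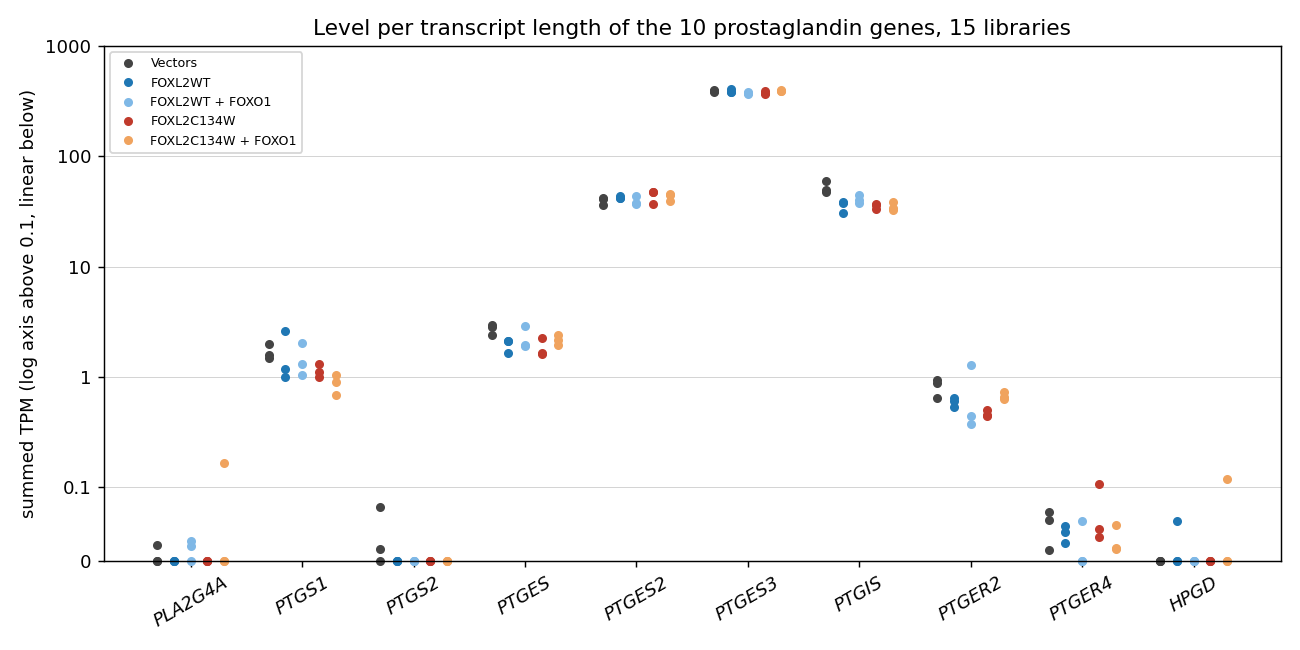
Summed TPM of the transcripts of each of the 10 prostaglandin genes (vertical axis, log scale above 0.1 and linear below) for each of the 15 libraries, coloured by condition. PTGES3 lies between 364 and 404 TPM, PTGIS and PTGES2 between 30.7 and 59.1 TPM, PTGES, PTGS1 and PTGER2 between 0.376 and 2.93 TPM, and the other members at or below 0.165 TPM.

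Of the 10 members, 6 had enough counts to be tested and 4 did not. Each of the 6 had at least 14 counts in every library, so none was tested through its level in 1 condition alone. A test of any difference among the 5 conditions called 2 of the 6 (PTGIS, adjusted p = 8.2e-05, and PTGER2, adjusted p = 0.0375), while 16.4% of the 13868 genes tested were called. Without 1 library in turn, PTGER2 passed this test in 3 of 15 fits (without Vectors replicate B, FOXL2WT + FOXO1 replicate A or FOXL2C134W + FOXO1 replicate B) and PTGIS in 15 of 15.

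PLA2G4A, the first step of the pathway, had 0 counts in 11 of 15 libraries and 5 counts in all. The highest was 2 counts, in FOXL2C134W + FOXO1 replicate B, and no difference was detectable at this depth. PTGS2, the inducible cyclooxygenase of the ovulatory response, had 1 count each in Vectors replicates B and C and 0 in the other 13 libraries, all 12 transfected with FOXL2 and SMAD3 included. Neither of these counts was assigned to PTGS2-201, the full-length coding transcript, whose TPM was listed at 0 throughout. Both genes lie on chromosome 1, PTGS2 at chr1:186671791-186680922 and PLA2G4A at chr1:186828949-186988981 (GRCh38), with 148 kb between them.

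PTGS1, the constitutive cyclooxygenase (chr9:122370530-122395703), was low but measured in every library. It had 4.58, 3.76 and 4.24 CPM in Vectors replicates A, B and C, 3.03, 2.55 and 3.38 CPM in FOXL2WT and 3.13, 2.63 and 3.23 CPM in FOXL2C134W. All 6 of the latter libraries lay below the 3 of Vectors. With FOXO1 it had 2.76, 3.9 and 3.13 CPM in FOXL2WT + FOXO1, of which replicate B lay inside the range of Vectors, and 2.4, 3.02 and 2.71 CPM in FOXL2C134W + FOXO1, all below Vectors. The log2 fold change against Vectors passed the test in FOXL2C134W (-0.49, SE 0.16, adjusted p = 0.0432, 28.7% lower) and in FOXL2C134W + FOXO1 (-0.63, SE 0.16, adjusted p = 0.0172, 35.3% lower). It was -0.47 in FOXL2WT (SE 0.16, adjusted p = 0.0919) and -0.35 in FOXL2WT + FOXO1 (SE 0.16, adjusted p = 0.267), which did not pass. The call in FOXL2C134W held in 7 of 15 fits without 1 library and was lost without any of the 6 Vectors and FOXL2C134W libraries, FOXL2WT replicate A or FOXL2C134W + FOXO1 replicate C (adjusted p up to 0.181). That in FOXL2C134W + FOXO1 held in 11 of 15 and was lost without Vectors replicate A or C or FOXL2C134W + FOXO1 replicate A or C (adjusted p up to 0.0853). With DESeq2 the adjusted p of PTGS1 was 0.0781 in FOXL2C134W, which did not pass, and 0.0241 in FOXL2C134W + FOXO1.

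The TPM of PTGS1 was spread over many transcripts. PTGS1-202 held 32.9% of it and PTGS1-201 20.3%, and a transcript annotated as subject to nonsense-mediated decay 19.7%. On this scale FOXL2WT and FOXL2WT + FOXO1 overlapped Vectors. FOXL2WT replicate C reached 2.6 TPM and FOXL2WT + FOXO1 replicate B 2.01 TPM, above the highest library of Vectors (1.97 TPM), while their CPM did not. The libraries of FOXL2C134W (0.993 to 1.31 TPM) and FOXL2C134W + FOXO1 (0.679 to 1.05 TPM) stayed below those of Vectors (1.47 to 1.97 TPM).

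The 3 prostaglandin E synthase genes differed in level and in pattern. PTGES (chr9:129738331-129753042) had 3.58, 3.91 and 3.08 CPM in Vectors, 2.13, 2.75 and 2.74 CPM in FOXL2WT and 2.1, 2.01 and 2.86 CPM in FOXL2C134W, and the libraries of either FOXL2 form lay below those of Vectors. It had 4.04, 2.46 and 2.6 CPM in FOXL2WT + FOXO1, where replicate A was the highest library of all, and 2.77, 3.07 and 2.45 CPM in FOXL2C134W + FOXO1. The difference from Vectors passed the test in FOXL2C134W (log2 fold change -0.60, SE 0.20, adjusted p = 0.0472, 34.1% lower) but not in FOXL2WT (-0.47, SE 0.20, adjusted p = 0.192). This call held in 3 of 15 fits without 1 library (FOXL2C134W replicate C or FOXL2WT + FOXO1 replicate A or B left out) and was lost in the other 12. Over all 15 the adjusted p of PTGES ran from 0.025 to 0.181, and with DESeq2 it was 0.0556, which did not pass.

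PTGES2 (chr9:128120693-128128462), which encodes a membrane-associated synthase, had positive fold changes in both FOXL2 forms that did not pass the test. It had 38.9, 43.7 and 42.0 CPM in Vectors, 51.1, 48.5 and 47.7 CPM in FOXL2WT and 54.9, 46.4 and 41.5 CPM in FOXL2C134W. The libraries of FOXL2WT were all above Vectors (log2 fold change 0.24, SE 0.09, adjusted p = 0.113), while those of FOXL2C134W overlapped them (0.20, SE 0.09, adjusted p = 0.134). With other settings PTGES2 was called higher than in Vectors in FOXL2WT (adjusted p = 0.0074 with a filter of 1 count in any library, 0.0075 in a fit of the compared groups and 0.0431 without FOXL2C134W replicate A) and in FOXL2C134W (adjusted p = 0.0220 with the filter of 1 count and 0.0324 without FOXL2C134W replicate C). With FOXO1 it lay between 42.7 and 46.7 CPM in FOXL2WT + FOXO1 and between 42.0 and 51.3 CPM in FOXL2C134W + FOXO1.

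PTGES3 (chr12:56663341-56688408) was measured with the highest precision and varied least. Its mean was 532 ± 4.09 CPM in Vectors, 530 ± 19.9 in FOXL2WT, 506 ± 16.2 in FOXL2C134W, 515 ± 13.9 in FOXL2WT + FOXO1 and 532 ± 13.7 in FOXL2C134W + FOXO1 (SD, n = 3). The 95% interval of the log2 fold change against Vectors was -0.09 to 0.07 in FOXL2WT and -0.15 to 0.0051 in FOXL2C134W. The coding transcripts PTGES3-201, PTGES3-202 and PTGES3-207 held 72.1%, 15.2% and 8.57% of its TPM.

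PTGIS (chr20:49503874-49568137), the prostacyclin synthase gene, showed the clearest difference among the members. It had 233, 193 and 186 CPM in Vectors, 143, 122 and 147 CPM in FOXL2WT, 129, 134 and 144 CPM in FOXL2C134W, 152, 171 and 149 CPM in FOXL2WT + FOXO1 and 123, 136 and 128 CPM in FOXL2C134W + FOXO1. The 3 Vectors libraries were above all 12 libraries of the other conditions. Over all genes tested, libraries of a single condition did not overlap those of Vectors in 22.7% to 31.8%. The share of genes with no overlap in all 4 conditions was not counted. The log2 fold change against Vectors was -0.57 in FOXL2WT (SE 0.08, adjusted p = 2.9e-04, 32.5% lower) and -0.59 in FOXL2C134W (SE 0.08, adjusted p = 7.7e-05, 33.4% lower). It was -0.37 in FOXL2WT + FOXO1 (SE 0.08, adjusted p = 0.0128, 22.7% lower) and -0.66 in FOXL2C134W + FOXO1 (SE 0.08, adjusted p = 3.6e-05, 36.7% lower). These 4 comparisons share the Vectors libraries. The call was kept in all 15 fits without 1 library for each condition but FOXL2WT + FOXO1, where it held in 12 of 15 and was lost without Vectors replicate A or FOXL2WT + FOXO1 replicate A or C (adjusted p up to 0.0939). In these bulk libraries, fewer cells with the transcript and less transcript per cell cannot be told apart.

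In order of mean CPM, PTGIS ran from Vectors (204 ± 25.0) through FOXL2WT + FOXO1 (158 ± 12.1), FOXL2WT (137 ± 13.4) and FOXL2C134W (136 ± 7.53) to FOXL2C134W + FOXO1 (129 ± 6.74; SD, n = 3), and the last 3 conditions overlapped. The forms of FOXL2 did not differ for PTGIS beyond their spread (FOXL2C134W minus FOXL2WT -0.02 on the log2 scale, 95% interval -0.19 to 0.15), at FOXL2 RNA levels of 147 and 561 CPM. Its coding transcript PTGIS-201 held 79.7% of the TPM and fell from 43.1 ± 6.57 TPM in Vectors to between 26.7 and 31.7 TPM in the other conditions. The noncoding PTGIS-202 had 8.99 ± 1.53 TPM in Vectors and between 6.74 and 9.00 TPM elsewhere. Its libraries in FOXL2C134W (6.27 to 7.38 TPM) lay below those of Vectors (7.80 to 10.7 TPM), while the other conditions overlapped Vectors. The transcript values were not tested.

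PTGER2 (chr14:52314305-52328598), encoding the EP2 receptor, was the lowest of the members tested, with 14 to 42 counts a library. It had 1.74, 1.24 and 1.68 CPM in Vectors and 1.22, 1.01 and 1.15 CPM in FOXL2WT. In FOXL2C134W it had 0.831, 0.919 and 0.829 CPM, below every library of Vectors and FOXL2WT. Libraries of FOXL2C134W and FOXL2WT did not overlap in 30.4% of all genes tested. FOXL2WT + FOXO1 had 0.942, 0.835 and 0.722 CPM and FOXL2C134W + FOXO1 1.38, 1.24 and 1.16 CPM, so that on the CPM scale FOXO1 came with lower values beside FOXL2WT and higher values beside FOXL2C134W, without overlap in either. Over all genes tested, libraries with and without FOXO1 did not overlap in 14.5% beside FOXL2WT and 14% beside FOXL2C134W. On the TPM scale the lower values of PTGER2 with FOXO1 did not hold beside FOXL2WT, where it had 0.637, 0.529 and 0.606 TPM without FOXO1 and 1.27, 0.443 and 0.376 TPM with it, so that the libraries overlapped and the mean was higher with FOXO1 (0.698 against 0.591 TPM). Against Vectors the log2 fold change was -0.86 in FOXL2C134W (SE 0.23, adjusted p = 0.0167, 44.7% lower) and -0.91 in FOXL2WT + FOXO1 (SE 0.24, adjusted p = 0.0385, 46.9% lower). It was -0.46 in FOXL2WT (SE 0.23, adjusted p = 0.266) and -0.31 in FOXL2C134W + FOXO1 (SE 0.22, adjusted p = 0.434), neither of which passed.

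Both calls of PTGER2 depended on single libraries. That in FOXL2C134W held in 11 of 15 fits and was lost without Vectors replicate A or C or FOXL2C134W replicate A or C (adjusted p up to 0.0745). That in FOXL2WT + FOXO1 held in 5 of 15 (without Vectors replicate B, FOXL2C134W replicate A or any library of FOXL2C134W + FOXO1) and was lost in the others, with an adjusted p of up to 0.175. With DESeq2 the adjusted p of PTGER2 was 0.0498 in FOXL2C134W and 0.0959 in FOXL2WT + FOXO1. On the TPM scale the difference of FOXL2WT + FOXO1 from Vectors was -0.24 in place of -0.91, since in FOXL2WT + FOXO1 replicate A the short coding transcript PTGER2-202, at 0 in the other conditions, was given 0.993 TPM, which raised that library to 1.27 TPM from 14 counts.

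PTGER4 and HPGD could not be compared. PTGER4, encoding the EP4 receptor, had 4, 1 and 1 counts in Vectors, 2, 1 and 3 in FOXL2WT, 3, 2 and 2 in FOXL2C134W, 0, 0 and 1 in FOXL2WT + FOXO1 and 1, 1 and 1 in FOXL2C134W + FOXO1. Only Vectors replicate A exceeded the floor of 3 counts. HPGD, the inactivating enzyme, had 1 count in FOXL2WT replicate C, 1 in FOXL2C134W + FOXO1 replicate B and 0 in the other 13 libraries.

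**Figure D2:**
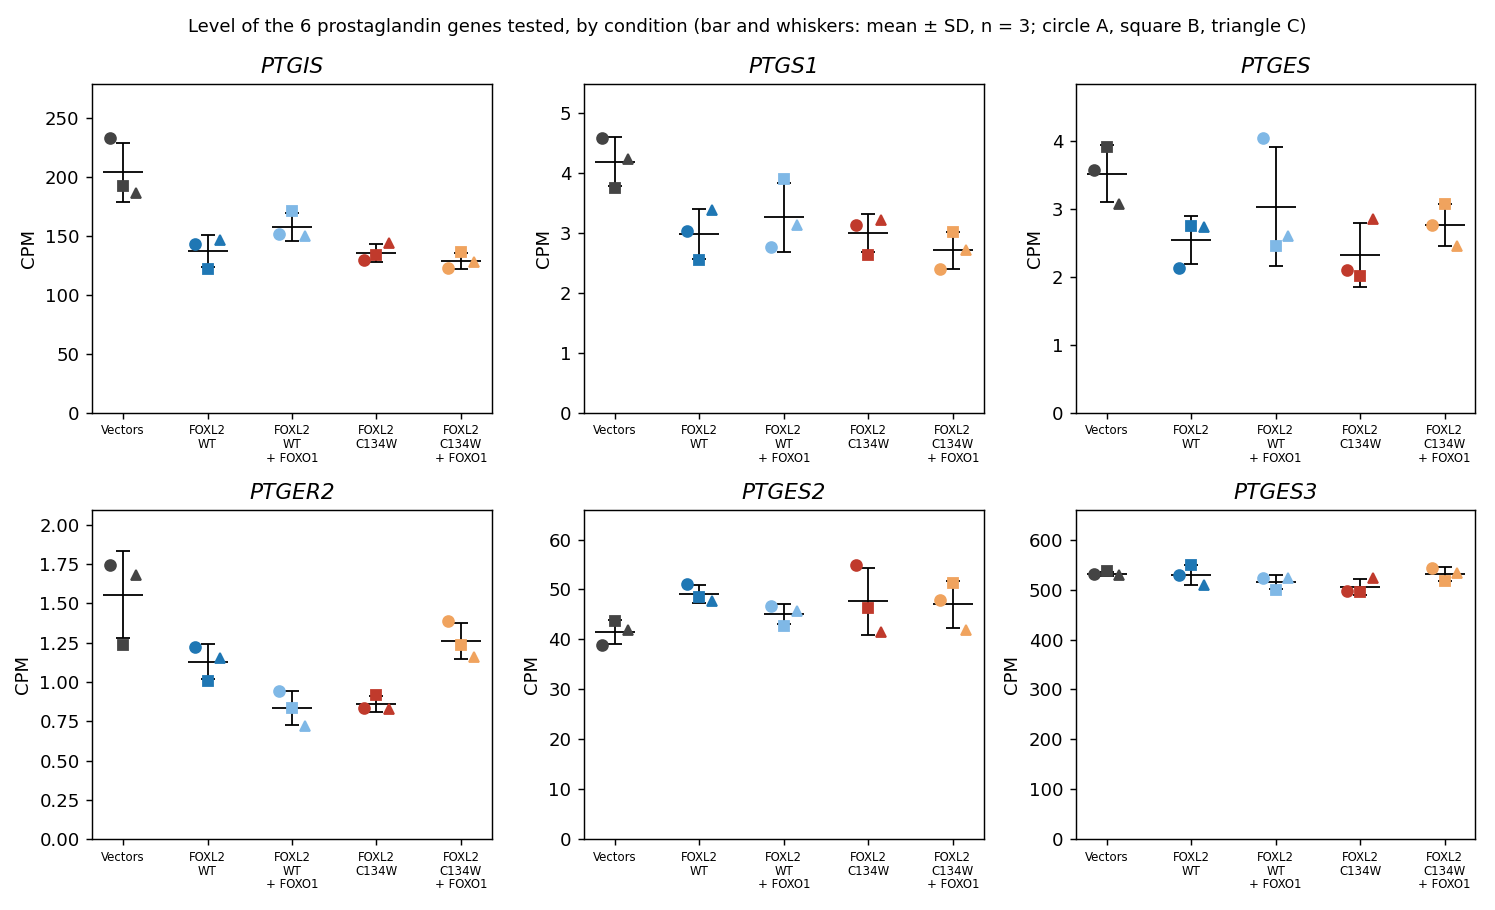
Level in CPM (vertical axes, from 0) of the 6 prostaglandin genes tested, in each library of the 5 conditions (circle replicate A, square B, triangle C), with the mean and SD of 3 libraries. PTGIS is at 186 to 233 CPM in Vectors and at 122 to 171 CPM in the other 12 libraries, PTGS1, PTGES and PTGER2 are lower in FOXL2C134W than in Vectors, and PTGES3 stays between 496 and 550 CPM.

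By comparison, the members called were as follows. In FOXL2WT against Vectors 1 of the 6 tested was called, PTGIS, against 6.07% of all genes, and the median log2 fold change of the 6 was -0.46, against 0.0025 over all genes. In FOXL2C134W against Vectors 4 were called, PTGIS, PTGER2, PTGES and PTGS1, against 14.7% of all genes. All 4 were lower, as were 1004 of the 2041 genes called, and the median over the 6 members was -0.54, against 0.0043 over all genes. DESeq2 called 2 of the members in this comparison (PTGIS and PTGER2) and not PTGS1 or PTGES, and DESeq2 with transcript length offsets called 1 (PTGIS), giving PTGER2 no adjusted p. In FOXL2WT the fold changes of PTGS1, PTGES and PTGER2 were -0.47, -0.47 and -0.46, with no library overlapping Vectors, and were not called. Such a lack of overlap was common: over all genes tested it held in 31.1% for FOXL2WT and Vectors. For FOXL2C134W and Vectors it held in 31.8%.

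Both FOXO1 conditions were also set against Vectors, a comparison chosen after the data were seen. In FOXL2WT + FOXO1 2 members were called, PTGIS and PTGER2, against 3.78% of all genes, and in FOXL2C134W + FOXO1 2 were called, PTGIS and PTGS1, against 9.33%. All of these were lower than in Vectors. Over all genes tested, libraries did not overlap those of Vectors in 22.7% for FOXL2WT + FOXO1 and 28.4% for FOXL2C134W + FOXO1. The median over the 6 members was -0.29 and -0.33, against 0.0034 and 0.00031 over all genes.

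**Figure D3:**
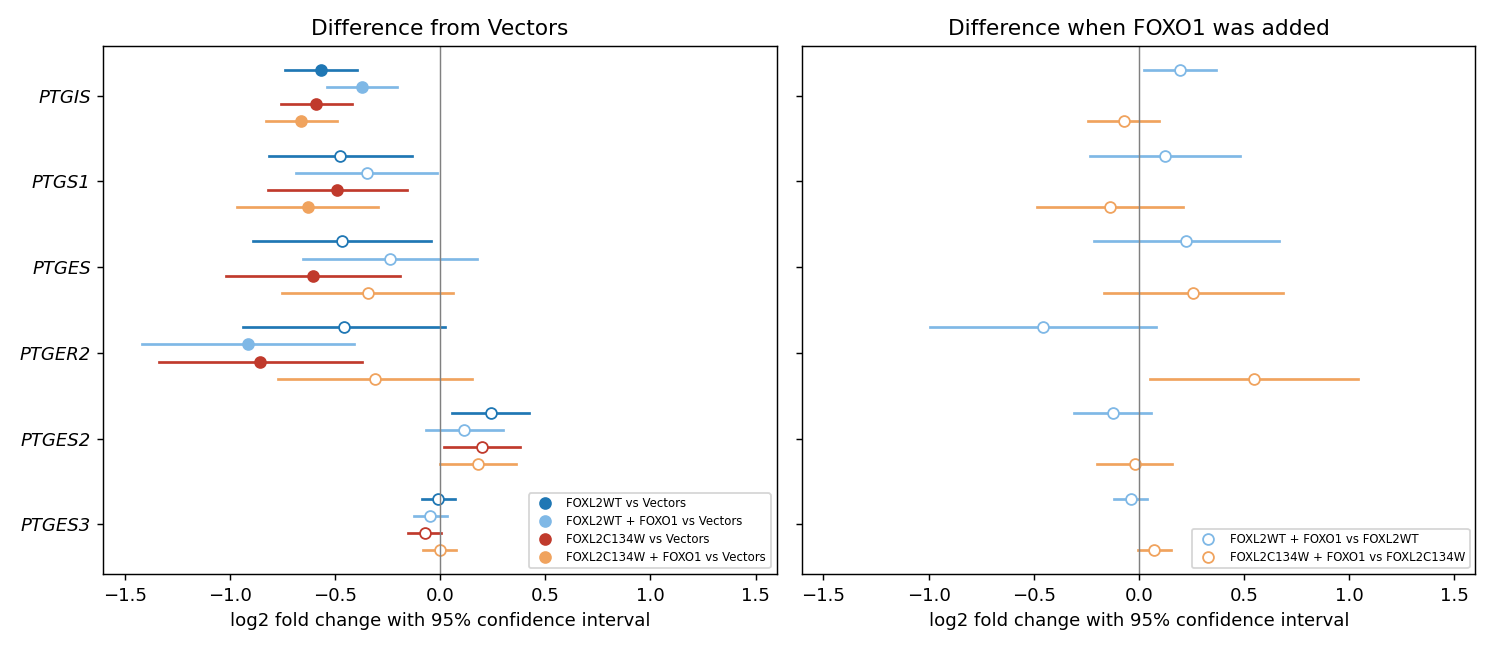
Log2 fold change (horizontal axis) of the 6 members tested, with its 95% confidence interval. The left panel sets each other condition against Vectors, and the right panel shows FOXO1 added to either form of FOXL2. Filled points had an adjusted p below 0.05. PTGIS lies between -0.66 and -0.37 against Vectors and is filled in all 4 comparisons, and PTGER2 is at -0.46 and 0.55 on the right, unfilled.

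The forms of FOXL2 were also compared directly. FOXL2 and SMAD3 RNA were both called lower in FOXL2C134W than in FOXL2WT, so the form and these amounts cannot be told apart here. FOXL2C134W against FOXL2WT called 0 of the 6 members with edgeR, against 11.2% of all genes, with 0 at an unadjusted p under 0.05 and 0 by DESeq2, which gave an adjusted p to 5 of them. The member with the largest difference was PTGER2, at -0.40 (95% interval -0.91 to 0.12). For PTGES the difference was -0.14 (95% interval -0.58 to 0.30) and for PTGS1 -0.01 (95% interval -0.36 to 0.34), so that differences of either sign remain possible at this depth. FOXL2C134W + FOXO1 against FOXL2WT called 0 members, against 1.69% of all genes, again with 0 at an unadjusted p under 0.05 and 0 by DESeq2, which gave an adjusted p to 3 of them.

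Adding FOXO1 to FOXL2WT called 0 members, against 0.0505% of all genes, and 1 had an unadjusted p under 0.05, PTGIS, whose log2 fold change was 0.20 (95% interval 0.02 to 0.37, adjusted p = 0.493). Adding FOXO1 to FOXL2C134W called 0 members, against 0.714% of all genes, and 1 had an unadjusted p under 0.05, PTGER2, at 0.55 (95% interval 0.05 to 1.04, adjusted p = 0.385). DESeq2 called 0 of the 3 members to which it gave an adjusted p in both, and PTGER2 was not among these 3. SMAD3 RNA was lower by 1.51 and 1.11 on the log2 scale when FOXO1 was added, so FOXO1 and a lower SMAD3 level cannot be told apart here. FOXL2 RNA was also called lower when FOXO1 was added to FOXL2WT, but was not called when it was added to FOXL2C134W. Beside FOXL2WT a lower FOXL2 level thus cannot be told apart from FOXO1 either.

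FOXL2C134W + FOXO1 against FOXL2WT + FOXO1 called 0 members with edgeR, against 0.144% of all genes. FOXL2, SMAD3 and FOXO1 RNA were all called lower in this comparison, so the form and these amounts cannot be told apart. At an unadjusted p under 0.05 there were 2, PTGIS (-0.29, 95% interval -0.46 to -0.12, adjusted p = 0.186) and PTGER2 (0.61, 95% interval 0.09 to 1.12, adjusted p = 0.298), and DESeq2 called 1, PTGIS. The interaction, the effect of FOXO1 beside FOXL2C134W minus that beside FOXL2WT, called 0 members, against 1.38% of all genes, and 0 of 3 with an adjusted p by DESeq2, PTGIS included and PTGER2 not. The same 2 genes had an unadjusted p under 0.05. The interaction was 1.00 for PTGER2 (SE 0.35, adjusted p = 0.197) and -0.27 for PTGIS (SE 0.11, adjusted p = 0.333).

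PTGS1, PTGES and PTGER2 were the members other than PTGIS called in FOXL2C134W against Vectors, with fold changes of the same sign in FOXL2WT, and the 250 bases before their RefSeq starts are shown (GRCh38.p14, in the direction of the gene), to let their letters be set beside the factors transfected. Capitals mark TAAACA, the core of many forkhead sites, or TGTTTA on the other strand, and CAGAC, the SMAD element, or GTCTG. RefSeq windows were at hand for 9 of the 10 members, PTGIS being the exception, and PTGS1 has 2 starts.
PTGS1, first start, chr9:122370283-122370532, plus strand: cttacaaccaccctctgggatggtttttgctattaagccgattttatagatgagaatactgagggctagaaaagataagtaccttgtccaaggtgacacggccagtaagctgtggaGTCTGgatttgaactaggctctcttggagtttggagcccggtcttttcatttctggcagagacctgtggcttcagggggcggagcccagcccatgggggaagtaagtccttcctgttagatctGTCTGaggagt
PTGS1, second start, chr9:122375052-122375301, plus strand: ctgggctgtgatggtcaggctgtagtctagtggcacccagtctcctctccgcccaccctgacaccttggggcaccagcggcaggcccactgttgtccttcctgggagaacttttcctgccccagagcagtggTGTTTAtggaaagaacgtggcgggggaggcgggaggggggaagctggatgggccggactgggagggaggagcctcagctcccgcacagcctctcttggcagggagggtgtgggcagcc
PTGES, chr9:129753043-129753292, minus strand: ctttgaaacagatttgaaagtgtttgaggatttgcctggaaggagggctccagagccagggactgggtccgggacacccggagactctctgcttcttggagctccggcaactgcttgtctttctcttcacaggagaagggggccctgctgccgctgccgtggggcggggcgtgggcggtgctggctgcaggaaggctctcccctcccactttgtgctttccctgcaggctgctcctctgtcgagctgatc
PTGER2, chr14:52314062-52314311, plus strand: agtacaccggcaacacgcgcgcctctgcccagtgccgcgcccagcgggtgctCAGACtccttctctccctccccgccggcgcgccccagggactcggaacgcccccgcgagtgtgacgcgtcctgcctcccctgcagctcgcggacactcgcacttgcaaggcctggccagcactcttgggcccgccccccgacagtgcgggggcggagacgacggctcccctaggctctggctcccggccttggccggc

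The second PTGS1 window holds 1 forkhead core, the first PTGS1 window 2 SMAD elements and the PTGER2 window 1, and the PTGES window holds neither. Over the 13 windows of the 9 members, 1 had the forkhead core and 6 had the SMAD element. Of all 35116 RefSeq windows of this length, 11.0% have the forkhead core and 38.0% the SMAD element on either strand. PTGS2, which had almost no counts, has a SMAD element in its window. The letters TATAAA of a TATA box, on either strand, are in the PTGS2 window, in the first PTGS1 window and in 10.7% of all windows. These matches describe letters and not binding.

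Among 26 other genes of the pathway, 15 were tested. FOXL2WT against Vectors called 2 of the 15 (6.07% of all genes were called) and FOXL2C134W against Vectors 3 (14.7% of all genes), all lower, with medians of -0.04 and -0.10 on the log2 scale. DESeq2, which gave 11 of the 15 an adjusted p in both, called 0 and 2. FOXL2C134W against FOXL2WT called 1 (11.2% of all genes), as did DESeq2, and the comparisons with FOXO1 and the interaction called 0 with edgeR, with between 0 and 3 at an unadjusted p under 0.05 and 0 by DESeq2.

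Of 8 other phospholipase A2 genes, 4 were tested. PLA2G4C, a membrane-bound relative of PLA2G4A, had 25.2, 21.6 and 24.3 CPM in Vectors, 22.7, 23.8 and 24.0 CPM in FOXL2WT and 17.8, 19.1 and 19.7 CPM in FOXL2C134W, below both. It passed the test in FOXL2C134W against Vectors (-0.33, SE 0.07, adjusted p = 0.0050) and against FOXL2WT (-0.31, SE 0.07, adjusted p = 0.0105). On the TPM scale PLA2G4C was not lower, with means of 22.4 TPM in Vectors, 23.7 in FOXL2WT and 23.7 in FOXL2C134W, and with transcript length offsets DESeq2 gave adjusted p = 0.935 and 0.965 for these comparisons. PLA2G4B had 19, 24 and 24 counts in Vectors and 2, 0 and 1 in FOXL2WT (adjusted p = 0.0422), but 29, 5 and 0 in FOXL2C134W. Its counts are uncertain because it shares exons with the readthrough gene JMJD7-PLA2G4B.

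Of 7 other prostanoid synthase genes, 6 were tested. AKR1C3, a reductase that makes prostaglandin F2 alpha forms and also acts on steroids, had 29, 14 and 22 counts in Vectors, 4, 3 and 3 in FOXL2WT and 8, 7 and 14 in FOXL2C134W. It was lower than in Vectors in FOXL2WT (log2 fold change -2.39, SE 0.48, adjusted p = 0.0051) and in FOXL2C134W (-1.19, SE 0.39, adjusted p = 0.0469). DESeq2 gave AKR1C3 no adjusted p in either comparison. Its near-identical paralogs could share reads with it. AKR1B1, an aldose reductase with prostaglandin F synthase activity, had 123, 124 and 117 CPM in Vectors and 115, 101 and 95.6 CPM in FOXL2C134W (-0.22, SE 0.06, adjusted p = 0.0126). With transcript length offsets the adjusted p of AKR1B1 in DESeq2 was 0.0706.

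Of 7 other prostanoid receptor genes, only PTGER1 and the thromboxane receptor gene TBXA2R were tested, and neither was called. PTGIR, the receptor of the prostacyclin that PTGIS makes, had 2 to 15 counts a library, and PTGFR at most 1. Of the 4 transport and reduction genes, the exporter ABCC4 (120 to 137 CPM) and the reductase PTGR1 (92.1 to 108 CPM) were well measured and not called.

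In the lipoxygenase branch, which uses the same arachidonic acid for leukotrienes, 4 of 12 genes were tested and 0 were called in any comparison with edgeR or DESeq2, with at most 1 at an unadjusted p under 0.05. ALOX5 had at most 2 counts. Of 10 genes of ovulation and cumulus expansion, 7 were tested. Against Vectors 1 was called in FOXL2C134W (14.7% of all genes) and 1 in FOXL2C134W + FOXO1 (9.33%). FOXL2C134W against FOXL2WT called 2 (11.2% of all genes). DESeq2 called 1 in FOXL2C134W + FOXO1 against FOXL2C134W, 1 in FOXL2C134W + FOXO1 against FOXL2WT and 1 in the interaction. In these comparisons edgeR called 0. TNFAIP6, which links hyaluronan in the cumulus matrix and responds to prostaglandin E2, had 23, 26 and 41 counts in Vectors, 9, 10 and 18 in FOXL2C134W and 12, 12 and 10 in FOXL2C134W + FOXO1. It was lower than in Vectors in FOXL2C134W (-1.31, SE 0.34, adjusted p = 0.0143) and in FOXL2C134W + FOXO1 (-1.39, SE 0.35, adjusted p = 0.0160). DESeq2 gave TNFAIP6 no adjusted p in either comparison. RUNX1 differed between FOXL2C134W and FOXL2WT (0.17, SE 0.05, adjusted p = 0.0269), as did PTX3 (-0.16, SE 0.04, adjusted p = 0.0136). HAS2, the hyaluronan synthase of the cumulus, had at most 1 count.

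The 3 genes whose log2 CPM ran most like PTGIS over the 15 libraries, among 13867 others, were DPYSL3 (Pearson r = 0.96), DHRS3 (0.96) and the collagen gene COL3A1 (0.95). For PTGER2 they were P4HA2, a collagen prolyl hydroxylase subunit (0.85), the cholesterol synthesis gene SQLE (0.84) and PDIA6 (0.83). Among the members, PTGIS and PTGS1 ran most alike (0.91). These values describe libraries that share conditions and depth.

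Since PTGIS is also a gene of endothelium and stroma, their markers are given beside it. Of 3 endothelial markers (PECAM1, VWF, CDH5), 0 were called in any comparison with edgeR or DESeq2, with at most 1 at an unadjusted p under 0.05, and their summed level was 6.28 to 7.15 CPM in Vectors, 3.76 to 6.37 CPM in FOXL2WT, 4.51 to 5.71 CPM in FOXL2C134W, 5.32 to 6.03 CPM in FOXL2WT + FOXO1 and 4.8 to 6.06 CPM in FOXL2C134W + FOXO1. Of 4 stromal markers (COL1A1, DCN, PDGFRA, PDGFRB), COL1A1 was lower than in Vectors in all 4 conditions (log2 fold change -0.42 in FOXL2WT, -0.20 in FOXL2C134W, -0.30 in FOXL2WT + FOXO1 and -0.41 in FOXL2C134W + FOXO1), PDGFRB was lower in FOXL2C134W + FOXO1, and DCN had at most 5 counts. The summed stromal level was 1550 to 1620 CPM in Vectors and 1100 to 1380 CPM in the other conditions, most of it COL1A1. Of 4 immune markers, CD68, a lysosomal gene of many cells, was lower than in Vectors in all 4 conditions (-0.27 to -0.22), while PTPRC and CD3E had at most 5 and 1 counts. CD14 had 12 to 38 counts a library and was not called in any comparison with edgeR. The part of these markers in the result for PTGIS was not tested.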

How the data were processed

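RNA of 15 HGrC1 libraries was grouped by the labels into 5 conditions of 3 lettered replicates. The authors quantified 75-bp single-end reads with Salmon 1.1.0 on hg38, and deposited a gene table of estimated counts rounded to whole numbers, without normalization, and per-library transcript tables with TPM (scaled to a fixed total per library), estimated reads and effective lengths. The authors' own comparisons were run in DESeq2. Whole-number rounding limits values of a few counts, and the split of reads among transcripts is an estimate. Gene coordinates came from GENCODE 44 (GRCh38), which may not be the release of the authors.

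From the counts, edgeR 4.0.16 in R 4.3.3 (filterByExpr, TMM, quasi-likelihood test, all 15 libraries in 1 fit, 13868 genes) gave log2 fold changes and Benjamini-Hochberg adjusted p-values, and genes under 0.05 were called. Log2-CPM used a prior count of 2. The fit was tested on simulated data. Tables and plots used Python 3.11.15, pandas 2.3.3 and matplotlib 3.10.9. Totals of 14962245 to 25339094 set the counting precision, and 15042 genes had 0 counts throughout. Floors of 3 counts cover counting error only. TPM was summed over transcripts to set levels of genes side by side. Promoter windows came from RefSeq (GRCh38.p14).

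The members and gene lists were chosen with earlier results of these data known. Named were all members, the transfected genes, in each comparison up to 3 called pathway genes of largest change, up to 2 called genes each of the ovulatory and lipoxygenase lists, and for the 2 members of widest span the 3 genes of highest correlation. PTX3, RUNX1, the markers and genes given only by their level were named beyond this rule after their values were seen. The alternatives were DESeq2 1.42.0, with and without transcript length offsets, its size factors, filters of 1 count in any or 10 in every library, a replicate block, a fit of the compared groups, TPM, and leaving out each library.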

Additional observations from a re-analysis of the deposited data

Results flagged for a closer look

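On the CPM scale the effect of FOXO1 on PTGER2 had opposite signs beside the 2 forms of FOXL2, with all 3 libraries lower when it was added to FOXL2WT (log2 fold change -0.46) and all 3 higher when it was added to FOXL2C134W (0.55). Such a lack of overlap in 1 or the other direction held in 14.5% and 14% of all genes tested. The interaction was 1.00 on the log2 scale (SE 0.35), and its adjusted p of 0.197 did not pass. It rests on 14 to 30 counts a library. FOXO1 RNA was lower in FOXL2C134W + FOXO1 than in FOXL2WT + FOXO1. FOXL2 RNA was called lower when FOXO1 was added to FOXL2WT and not when it was added to FOXL2C134W. The part of these amounts in the interaction was not tested. On the TPM scale the signs were not opposite: the mean was 0.591 TPM in FOXL2WT and 0.698 TPM in FOXL2WT + FOXO1, where replicate A had 1.27 TPM.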

How the results depend on the processing

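The 9 called log2 fold changes of members against Vectors were recomputed under 205 alternatives in all. Of these, 148 kept the direction and, where tested, the call, and 54 kept the direction but lost the call. A further 3 moved in size, and 0 reversed. The TPM alternatives among the 205 were ratios of means without a test, so they hold no call. The count of members called in FOXL2WT against Vectors was 1, and 2 with a filter of 1 count in any library or a fit of the compared groups, which added PTGES2, higher than in Vectors (1 to 2 without 1 library). In FOXL2C134W against Vectors it was 4, but 2 with DESeq2, 1 with transcript length offsets, 2 with the replicate block and 1 to 4 without 1 library. With the filter of 1 count it was also 4, with PTGER2 lost and PTGES2 called higher than in Vectors. In FOXL2WT + FOXO1 against Vectors it was 2, but 1 with DESeq2, the filter of 1 count, the replicate block or the fit of the compared groups, 0 with transcript length offsets (PTGER2 had no adjusted p there) and 0 to 2 without 1 library (0 without Vectors replicate A, FOXL2WT + FOXO1 replicate A or FOXL2WT + FOXO1 replicate C). In FOXL2C134W + FOXO1 against Vectors it was 2, but 1 with transcript length offsets and 1 to 2 without 1 library. For any difference among the conditions it was 2, but 1 with DESeq2, with transcript length offsets or with the replicate block, 3 with the filter of 1 count (PTGES2, PTGIS and PTGS1), 3 with that of 10 counts in every library (PTGER2, PTGIS and PTGS1) and 1 to 3 without 1 library. The filter of 1 count raised the count from 0 to 1 (PTGIS) in FOXL2WT + FOXO1 against FOXL2WT, FOXL2C134W + FOXO1 against FOXL2WT + FOXO1 (DESeq2 also 1) and the interaction, where its adjusted p was 0.0126 and lay between 0.0126 and 0.647 over the alternatives. The cause was not tested. The labels do not say what libraries of the same replicate letter share. Same-lettered libraries of different conditions deviated from their group means with r between -0.164 and 0.166 over 30 pairs, and 5 of 15 libraries lay nearest to their own letter. A shared culture or day with a small effect, or an effect on few genes, could be missed by this check. Under the block PTGES and PTGS1 lost their calls in FOXL2C134W. PTGS1, PTGES and PTGER2 had 14 to 106 counts a library, and counting depth limits PTGS2, PLA2G4A, HPGD and PTGER4 to levels of a few counts.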
